A study of Homo sapiens and Mus musculus with 24 samples.

Results

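The clustered protocadherin genes of the mouse are described here in Neuro2a cells and in cultured hippocampal neurons, with and without UV irradiation. They were taken as every mouse gene whose symbol begins with Pcdha, Pcdhb or Pcdhg, which gave 58 genes of the 53715 counted: 14 of the alpha cluster, 22 of the beta cluster and 22 of the gamma cluster. The study compared RNA recovered in the aqueous phase of a TRIzol extraction from irradiated and from nonirradiated cells, an approach named UPA-seq. Irradiation joins RNA to bound proteins and carries the joined RNA out of the aqueous phase. A lower read count after irradiation was therefore taken as less recovery relative to other RNAs. The paper also proposes that the crosslinks hindered reverse transcription, and read counts cannot tell this apart from less recovery. Neuro2a is an established mouse neuroblastoma line, and HippCulture stands for a primary culture prepared from the hippocampus of E16.5 mouse embryos. Each cell type had 3 nonirradiated and 3 UV-irradiated samples, with no genetic change named in the labels, so 12 of the series' 24 samples enter here. The labels do not say whether replicates came from separate cultures, and the p-values then measure only the spread between these samples. The cultures for sequencing came from C57/BL6NCr embryos, whose pooling is not given in the sources used here. They were treated with AraC against glia and no sort is stated.

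Clustered protocadherins are adhesion molecules of the cadherin superfamily that neurons use to tell their own branches from those of other cells. Each cluster holds an array of large first exons with promoters of their own, and a neuron switches on a small subset of them. In the alpha and gamma clusters the chosen variable exon, which encodes the outer part of the protein, is joined to a common set of constant exons that encode its inner end and the 3′ UTR, whereas a beta gene is an unspliced unit with its own 3′ UTR. Pcdhac1, Pcdhac2, Pcdhgc3, Pcdhgc4 and Pcdhgc5 lie nearest to the constant exons and are called C-type, since their sequence and their control differ from those of the other members.

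All members lie on the forward strand of chromosome 18 (mm10), the alpha cluster at chr18:36930184-37187661, the beta cluster at chr18:37264938-37524479 and the gamma cluster at chr18:37661793-37841873. The files count every read once for each gene whose exons it overlaps, so a read on the constant exons was added to all members of its cluster. In the alpha cluster all 14 members hold the same 2860 shared bases, and in the gamma cluster all 22 hold at least 2116 of 2119. The lowest count among the members of a cluster, called the shared part below, was 92.2% to 97% of the median alpha count and 89.1% to 97.5% of the median gamma count, depending on the sample. The deposited count of a typical alpha or gamma member is therefore mostly the count of its cluster. The unshared part of a member, its count minus the shared part, comes mainly from its variable exon. It is 0 for the lowest member of each sample by construction and understates every other member by as much as that lowest member's own reads. Beta genes have 1 exon each and share no such part.

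Other limits of the counting apply to named members. Reads were counted without an option for strand, and antisense genes overlap the exons of Pcdhgc3 by 1559 bases, of Pcdhb12 by 1927, of Pcdhga10 by 2613, of Pcdhga11 by 1381 and of Pcdha11 by 2486. On the same strand, Pcdha4 shares 2410 exon bases with another annotated gene and Pcdhgc5 shares 902. Pcdhgb1 has an exon that overlaps the variable exon of Pcdhga4 by 1038 bases, and Pcdhb21 and Pcdhb22 overlap as well. Up to 26.6% of the 50-base windows of a variable exon recur elsewhere in the locus, whereas Pcdhac2 and Pcdhgc3 have no such window. How the reads of near-identical stretches were divided was not tested. Pcdhgb8 is annotated as a polymorphic pseudogene.

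The 12 samples held 6910907 to 9163323 counts on genes. Levels below are normalized CPM, that is counts scaled to a library total corrected by edgeR's TMM factors over all 12 samples. Of 9 genes of the neuroblastoma or sympathetic lineage, the summed level was 159 to 167 normalized CPM in nonirradiated Neuro2a and 0.179 to 0.285 in nonirradiated HippCulture. Of 9 neuronal genes it was 733 to 912 and 3426 to 3831, and 7 astrocyte genes summed to 44.9 to 75.3 and 1018 to 1056. The hippocampal culture thus held astrocyte markers too (7 of 7 above 1 normalized CPM), although AraC had been used against glia, and their part in the values of the members was not tested. In such bulk samples, fewer cells of a type and less RNA per cell cannot be told apart.

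Nonirradiated HippCulture samples carried more alpha and gamma RNA than nonirradiated Neuro2a samples, while the beta genes were mixed. Of the 58 members, 52 were higher in HippCulture and 2 were lower at an adjusted p under 0.05, against 41.4% and 39% of the 20940 genes tested. By samples, 52 members were higher and 2 were lower in every HippCulture sample than in every Neuro2a sample, which holds for 40.6% and 41.6% of genes. The median log2 difference, HippCulture minus Neuro2a, was 2.45 over alpha members, 3.35 over gamma members and 1.23 over beta members, and it was 0.02 over all genes tested. The shared part shows the alpha and gamma difference with no variable-exon reads beyond those of the lowest member of each sample. For alpha it stood at 17.3, 20.9 and 16.9 normalized CPM in Neuro2a and at 98.1, 89.4 and 98.3 in HippCulture, a log2 difference of 2.45 ± 0.09 (SE, n = 3 samples a group). For gamma it stood at 10.4, 9.48 and 9.18 in Neuro2a and at 97.9, 95.3 and 103 in HippCulture, a log2 difference of 3.42 ± 0.10. The groups did not overlap in either cluster.

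Because of this common part, the deposited counts of the 5 members with the largest difference, Pcdhgc4, Pcdhga3, Pcdhga11, Pcdhga2 and Pcdhga1, lay close together, with log2 differences of 3.43 to 3.65. Their unshared parts were further apart. Pcdhgc4, a C-type member, had 3, 6 and 1 unshared counts in the nonirradiated Neuro2a samples and 203, 235 and 236 in those of HippCulture. Pcdhga3 had 0, 3 and 0 in Neuro2a and 176, 172 and 138 in HippCulture, and Pcdhga11 had 2, 6 and 5 against 161, 177 and 166. In Neuro2a these 3 genes were thus close to the level of the lowest member, and in HippCulture they were among the members with the most unshared reads. Over unshared parts, 10 alpha members were higher and 2 lower in HippCulture, and 17 gamma members were higher and 4 lower. Among all genes in the deposited counts, 41.4% were higher and 39% lower. Pcdhgb8, called lower, was the lowest gamma member of every nonirradiated HippCulture sample, so its unshared part there was 0 by construction. The 2 alpha members called lower, Pcdha8 and Pcdhac1, were each the lowest alpha member in 1 of these samples.

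Which variable exons the reads lay on differed between the cell types. In nonirradiated Neuro2a, 39.1% of all unshared alpha counts came from Pcdhac2, 18.2% from Pcdha9 and 14.0% from Pcdha8. In HippCulture, Pcdhac2 held a like share, 37.6%, but Pcdha4 came next with 11.7%. Pcdha8 had 55, 58 and 46 unshared counts in Neuro2a and 0, 5 and 5 in HippCulture, where it was the lowest member in 1 sample. Its unshared part was lower in HippCulture by 3.74 ± 0.40 on the log2 scale (adjusted p = 7.7e-08), although its deposited count was higher by 2.13 ± 0.09. For Pcdha8 the direction of the difference between the cell types therefore depends on whether the reads on the constant exons are included.

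In the gamma cluster of Neuro2a, 25.4% of unshared counts came from Pcdhgb1 and 18.1% from the C-type member Pcdhgc3. Pcdhgb1 had 142, 179 and 142 unshared counts in nonirradiated Neuro2a, and its neighbour Pcdhga4 had 78, 70 and 65. Their exons overlap by 1038 bases, and reads there were added to both. The counts and shares of these 2 genes are therefore not independent. The next 2 genes along the cluster, Pcdhgb2 with 66, 91 and 61 and Pcdhga5 with 39, 25 and 39, were picked out after their values were seen. These 4 neighbours stood above the Pcdhga1, Pcdhga2 and Pcdhga3 exons before them, which had 0 to 7 unshared counts in any nonirradiated Neuro2a sample. In HippCulture the unshared reads were spread over more members. Pcdhgc3 held 18.1% there and Pcdhgc4 13.9%, and Pcdhgc3 had 313, 261 and 303 unshared counts.

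The C-type members did not behave as a group. Per kilobase of unshared exon, Pcdhac2 was the highest alpha member in both cell types, at 4.29 normalized CPM per kb in Neuro2a and 11.9 in HippCulture, and Pcdhgc3 reached 2.85 and 8.01. Pcdhgc4 was at 0.0814 in Neuro2a and at 6.0 in HippCulture. Pcdhac1 had 30, 23 and 15 unshared counts in Neuro2a and 14, 8 and 0 in HippCulture, a log2 difference of −1.41 ± 0.50 (adjusted p = 0.016). The value of 0 was set by the subtraction, since Pcdhac1 was itself the lowest alpha member of that sample, which bears on this difference. Pcdhgc5 had 9, 5 and 1 counts in Neuro2a and 22, 20 and 5 in HippCulture, a log2 difference of 1.83 ± 0.55 (adjusted p = 0.0057).

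**Figure D1:**
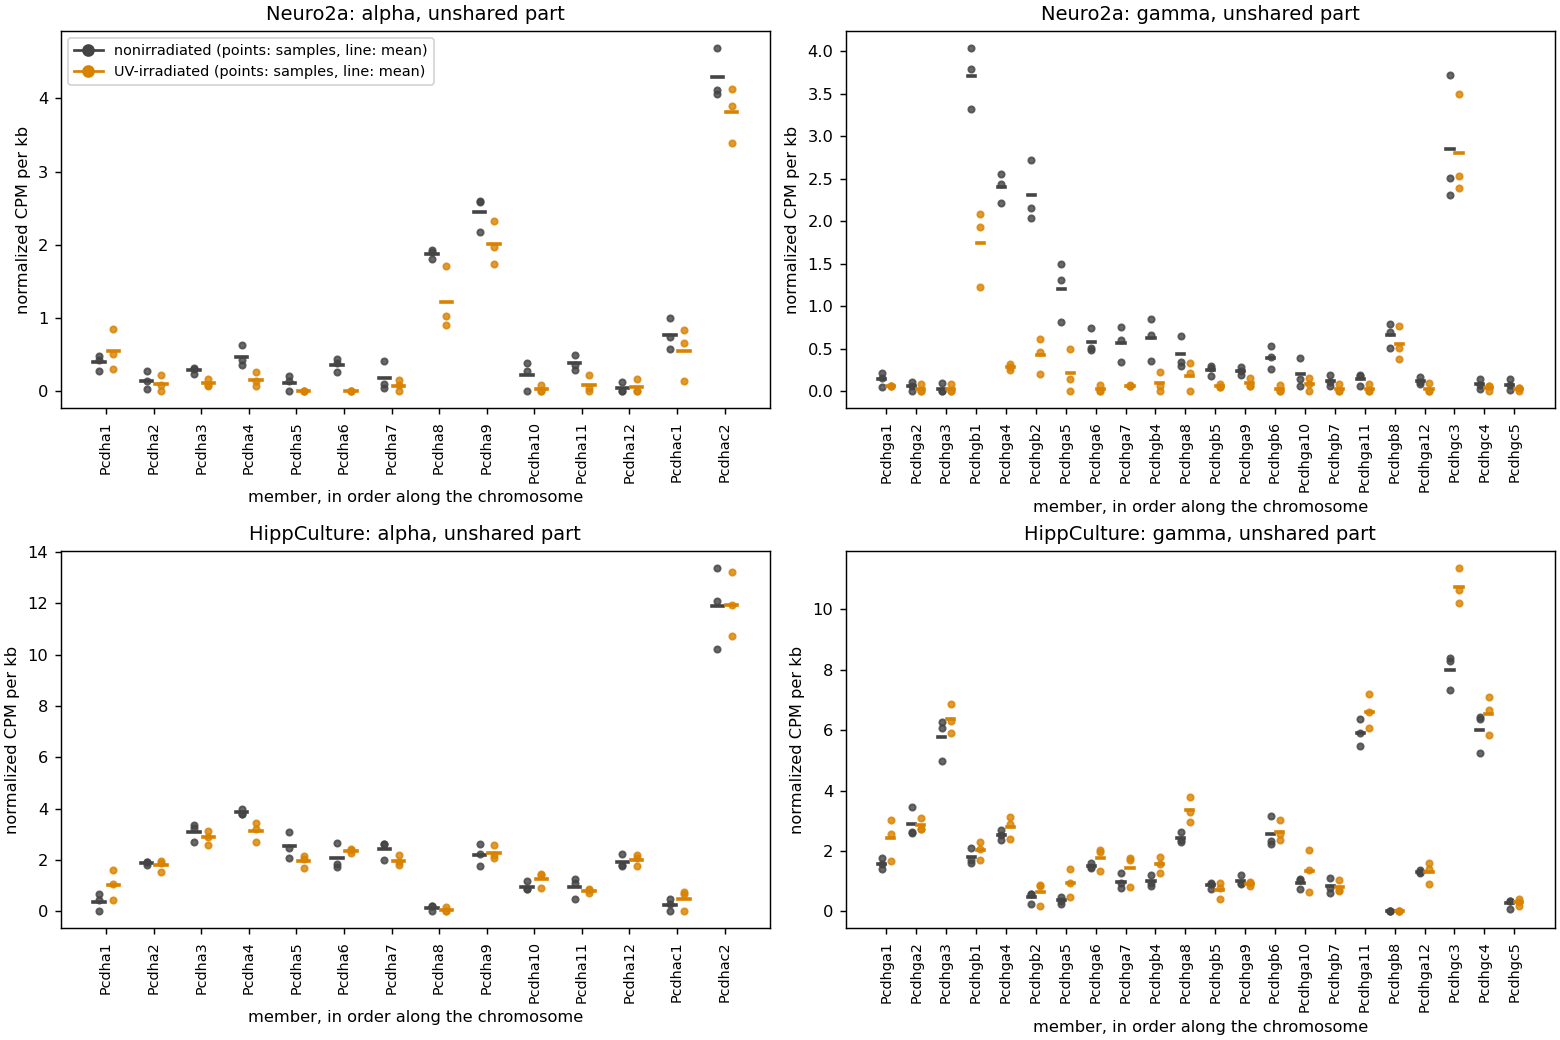
Unshared part of each alpha member (left) and gamma member (right) in normalized CPM per kilobase of unshared exon, in Neuro2a (top) and HippCulture (bottom), with points for the 3 nonirradiated (grey) and 3 UV-irradiated (orange) samples, lines for their means and a vertical scale of its own in each panel. Pcdhac2 leads the alpha cluster in both cell types (4.29 and 11.9 when nonirradiated), and in Neuro2a the orange points of Pcdhgb1, Pcdhga4, Pcdhgb2 and Pcdhga5 lie below the grey ones.

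Beta genes have no constant exons in common, so their levels can be compared without a shared part, apart from 455 exon bases that Pcdhb21 and Pcdhb22 share and the antisense gene over Pcdhb12. In nonirradiated Neuro2a the highest by count was Pcdhb11, at 7.69, 10.3 and 11.8 normalized CPM, followed by Pcdhb4, at 6.15, 8.16 and 8.89. Per kilobase, Pcdhb11 (2.25 ± 0.47 RPKM, SD, n = 3), Pcdhb4 (2.08 ± 0.38) and Pcdhb20 (1.79 ± 0.43) led the order and lay within each other's spread. In HippCulture Pcdhb22 was at 18.7, 14.6 and 18.9 normalized CPM and Pcdhb17 at 13.3, 15 and 15.9. Per kilobase the order there was Pcdhb17 (3.16 ± 0.29), Pcdhb9 (3.03 ± 0.53) and Pcdhb22 (2.64 ± 0.37), again with neighbours that did not differ beyond their spread. The lowest were Pcdhb3 in Neuro2a (0.185 RPKM) and Pcdhb1 in HippCulture (0.393 RPKM).

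Of the 22 beta genes, 16 were higher in HippCulture and 2 were lower. Pcdhb4 stood at 4.57, 2.85 and 5.24 normalized CPM in HippCulture, below every Neuro2a sample, with a log2 difference of −0.79 ± 0.21 (adjusted p = 0.0020). Pcdhb6 was at 3.33, 4.70 and 3.42 in Neuro2a and at 2.24, 1.52 and 3.00 in HippCulture, a log2 difference of −0.69 ± 0.25 (adjusted p = 0.018). The groups of Pcdhb6 did not overlap, but the call was lost with DESeq2 (adjusted p = 0.087), without Neuro2a replicate 2 and without HippCulture replicate 1 or 2. Pcdhb1, Pcdhb11, Pcdhb15 and Pcdhb20 did not pass the test, and Pcdhb11 had a log2 difference of 0.00 ± 0.18. Across the 22 genes, the RPKM of the 2 cell types had a Spearman's ρ of 0.483, given as a description, since genes in a library are not independent.

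Upon UV irradiation of Neuro2a cells, clustered protocadherin RNAs had lower read counts relative to other RNAs in all 3 clusters. Of the 58 members, 52 decreased and 0 increased, against 33% of 17425 genes that decreased and 28.9% that increased. In 53 members every irradiated sample was below every nonirradiated one, which holds for 40.1% of all genes. The median log2 fold change was −1.22 over alpha members, −1.48 over beta members and −0.75 over gamma members, beside −0.14 over all genes tested. No member was higher at an unadjusted p under 0.05 in edgeR, and DESeq2 called 0 higher and 51 lower. The alpha and gamma counts share their reads, so 14 and 21 decreased members there are not that many separate observations.

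Among beta genes in Neuro2a, 17 of 22 decreased. Pcdhb12 had 81 counts over the 3 nonirradiated samples, at 2.39, 2.31 and 2.44 normalized CPM, and 0 counts in all 3 irradiated samples. Taking 3 counts per library as the floor, it was at least 3.88-fold lower after irradiation. Its irradiated samples were thus all at 0, the only beta gene of which this holds, and it is also the beta gene overlapped by an antisense gene. Pcdhb8 fell from 1.54, 1.98 and 1.76 normalized CPM to 0, 0 and 0.212, that is from 60 counts to 1, a ratio of 25.9 with a 95% counting interval of 4.48 to 1041. Intervals and floors of this kind cover counting error only.

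Only 3 beta genes, Pcdhb4, Pcdhb11 and Pcdhb20, had at least 10 counts in every Neuro2a sample, and all 3 decreased with the test limited to such genes. Pcdhb16 was at 3.59, 4.21 and 4.30 normalized CPM without irradiation and at 0.750, 0.428 and 0.212 with it, a log2 fold change of −2.93 ± 0.41 (adjusted p = 2.6e-05). Pcdhb7 went from 1.54, 2.06 and 1.86 to 0, 0.214 and 0.637, with −2.57 ± 0.62, and Pcdhb17 from 5.73, 7.09 and 5.96 to 1.69, 1.71 and 1.70, with −1.76 ± 0.26. The 2 most abundant, Pcdhb11 and Pcdhb4, changed by −1.01 ± 0.23 and −0.98 ± 0.24. All 5 had groups that did not overlap. Pcdhb1, Pcdhb2, Pcdhb5, Pcdhb10 and Pcdhb15 did not pass the test. Pcdhb10 had the value nearest 0, from 1.28, 1.07 and 2.05 to 0.938, 0.214 and 1.91, with −0.39 ± 0.54 (adjusted p = 0.55). Setting Pcdhb12 to its bound left the beta median at −1.48.

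**Figure D2:**
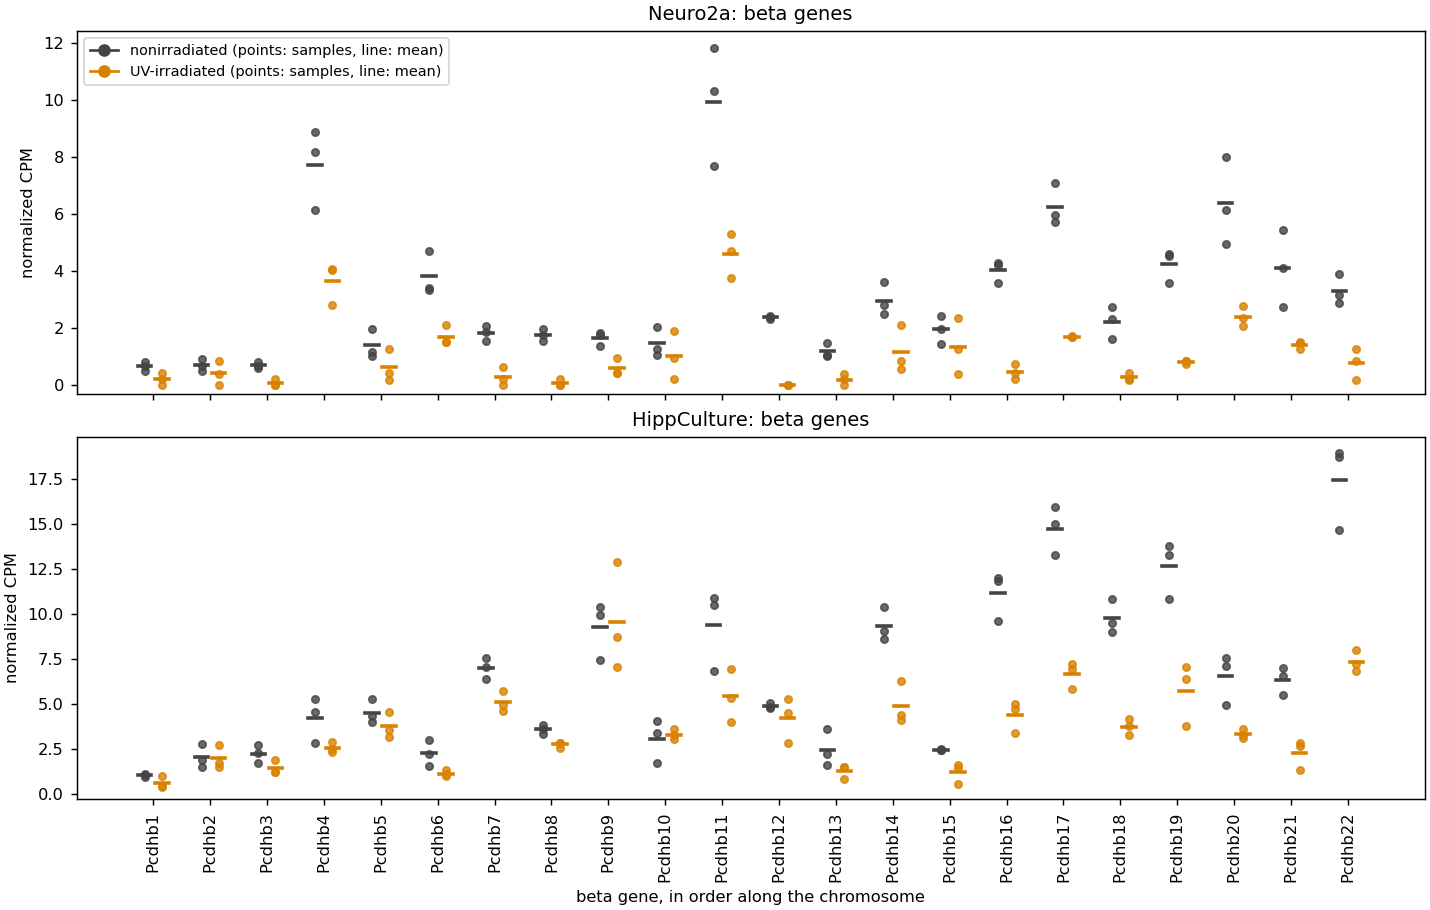
Normalized CPM of the 22 beta genes in Neuro2a (top) and HippCulture (bottom), in their order along the chromosome, with points for the 3 nonirradiated (grey) and 3 UV-irradiated (orange) samples and lines for the means; the panels have scales of their own. In Neuro2a the orange points of Pcdhb12 all lie at 0, and in HippCulture the separation is clearest at the distal end, as for Pcdhb22, from 14.6 to 18.9 down to 6.83 to 7.99.

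In HippCulture the clusters parted in the deposited counts: alpha and most beta RNAs decreased upon irradiation and gamma RNAs were not called. Of the 58 members, 28 decreased and 0 increased, against 25.9% of 18488 genes that decreased and 26.1% that increased. All 14 alpha members decreased with a median log2 fold change of −0.63, and 14 of 22 beta genes decreased with a median over all 22 of −0.89, beside −0.04 over all genes tested. The alpha counts share their reads, so the 14 alpha members are not that many separate observations. Of 13 alpha members with a tested unshared part, 0 decreased and 1 increased. The 22 gamma members had a median of −0.10, and 0 of them passed the test in edgeR, 0 at an unadjusted p under 0.05, and 0 in DESeq2. With genes of at least 10 counts in every sample 6 gamma members were called lower, and without irradiated replicate 1 there were 4. In 27 members, none of them of the gamma cluster, every irradiated sample was below every nonirradiated one, which holds for 29.5% of all genes.

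Pcdhb22, the most abundant beta gene of the culture, went from 18.7, 14.6 and 18.9 to 7.19, 6.83 and 7.99 normalized CPM, a log2 fold change of −1.26 ± 0.15 (adjusted p = 5.6e-07). Pcdhb17 went from 13.3, 15 and 15.9 to 6.92, 7.21 and 5.81, with −1.19 ± 0.15. The most negative value belonged to Pcdhb21, from 6.98, 5.51 and 6.56 to 2.85, 1.33 and 2.66, with −1.44 ± 0.24 (adjusted p = 3.5e-05). None of these groups overlapped. Pcdhb12, at 0 in irradiated Neuro2a, was at 4.84, 4.75 and 5.06 without and at 5.29, 2.84 and 4.48 with irradiation in HippCulture, with −0.20 ± 0.21 and overlapping groups. Pcdhb10 had the most positive value, 0.07 ± 0.28. The count of 14 decreased beta genes rests on low counts in part, and DESeq2 called 9.

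**Figure D3:**
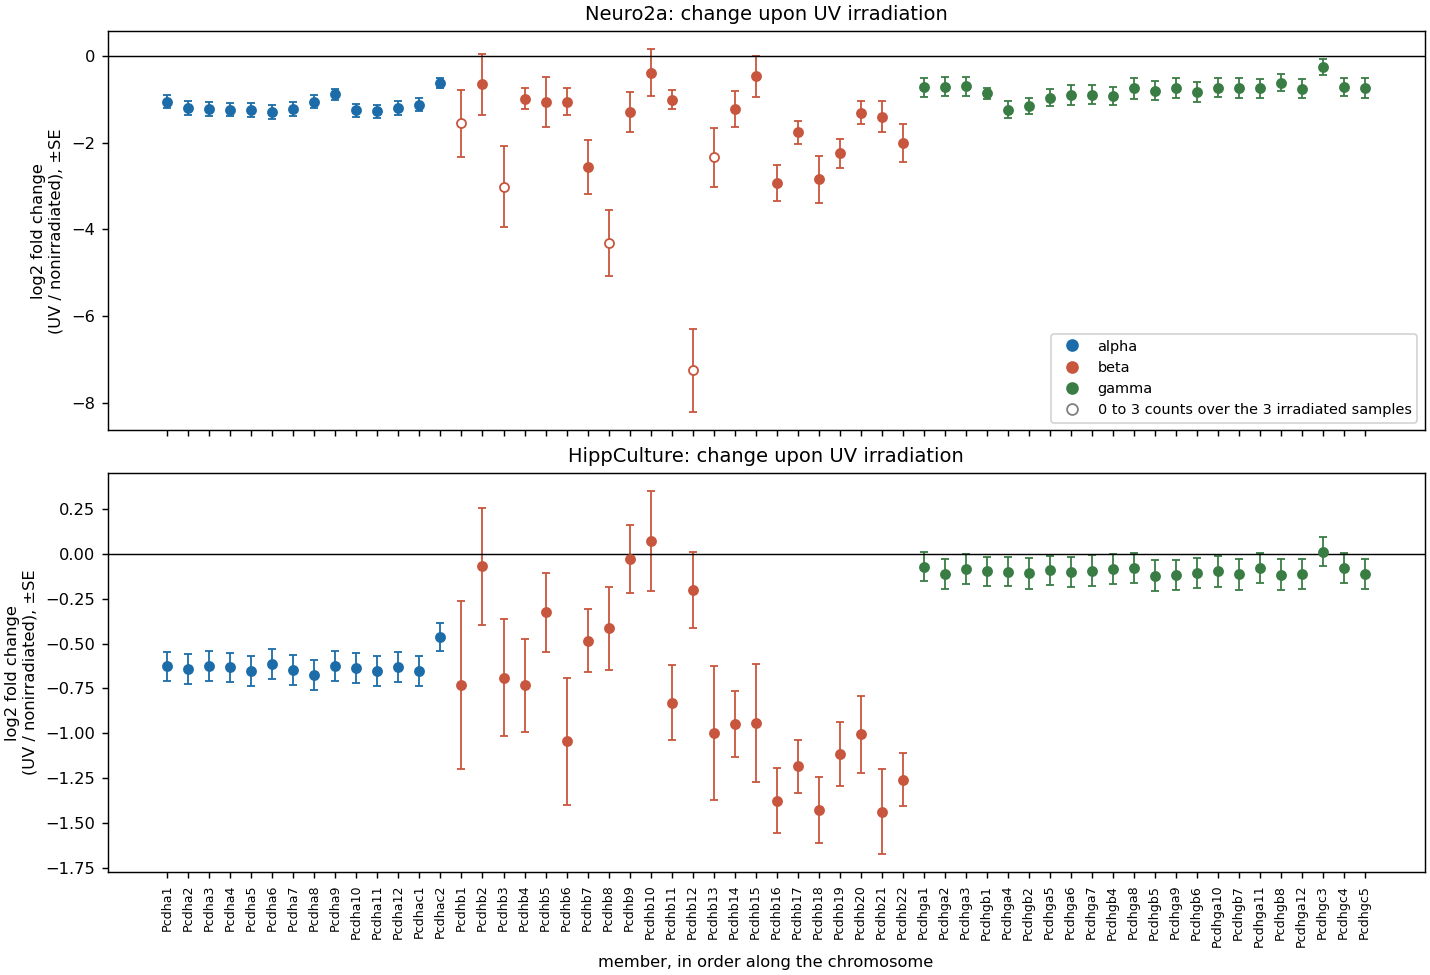
Log2 fold change upon UV irradiation, with its SE, of the 58 members in their order along the chromosome in Neuro2a (top) and HippCulture (bottom), by cluster; open points have 0 to 3 counts over the 3 irradiated samples, and the panels have scales of their own. Alpha and gamma points lie close together within a cluster because their counts share reads, with gamma medians of −0.75 in Neuro2a and −0.10 in HippCulture, while beta points spread from −7.25 to −0.39 and from −1.44 to 0.07.

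Among deposited counts, Pcdhac2 and Pcdhgc3 had the least negative changes of their clusters in both cell types. Pcdhac2 was at 29.7, 35.1 and 29.2 normalized CPM in nonirradiated and at 18.9, 16.9 and 20.6 in irradiated Neuro2a, with −0.63 ± 0.12, the least negative alpha value there. In HippCulture it went from 135, 120 and 139 to 96.6, 95.6 and 98.2, with −0.46 ± 0.08, again the least negative. Pcdhgc3 was at 23, 18 and 17 without and 19.1, 14.1 and 11.5 with irradiation in Neuro2a, with overlapping groups and −0.26 ± 0.19 (adjusted p = 0.25), the only gamma member not called there. In HippCulture it had 0.01 ± 0.08. Pcdhac1 changed by −1.13 ± 0.15 and −0.65 ± 0.08, Pcdhgc4 by −0.72 ± 0.22 and −0.08 ± 0.08, and Pcdhgc5 by −0.74 ± 0.22 and −0.11 ± 0.09 in Neuro2a and HippCulture, near the shared parts of their clusters. The most negative values were those of Pcdha6 (−1.30 ± 0.15) and Pcdhga4 (−1.25 ± 0.20) in Neuro2a and of Pcdha8 (−0.67 ± 0.08) and Pcdhgb5 (−0.12 ± 0.09) in HippCulture.

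In HippCulture the beta genes with longer 3′ UTRs had lower log2 fold changes. Their 3′ UTRs ran from 74 bases in Pcdhb1 to 6120 in Pcdhb14, and Spearman's ρ with the log2 fold change was −0.794 over the 22 genes in HippCulture and −0.301 in Neuro2a. The 8 genes with 3′ UTRs of at least 1827 bases had a median log2 fold change of −1.22 in HippCulture and of −1.89 in Neuro2a. The 6 with 485 bases or fewer had medians of −0.13 and −0.98, and the 8 between them −0.71 and −1.82. These 3 classes were set after the values were seen. The 3′ UTR cannot be told apart from other features here. Its length moved with exon length (ρ = 0.987), with GC content (ρ = −0.926) and with the order of the genes along the cluster (ρ = 0.624). With the log2 fold change in HippCulture, these features had a ρ of −0.749, 0.804 and −0.718. These are descriptions across genes of the same libraries. Exceptions stood at the short end, where Pcdhb15 with 266 bases had −0.94 ± 0.33.

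**Figure D4:**
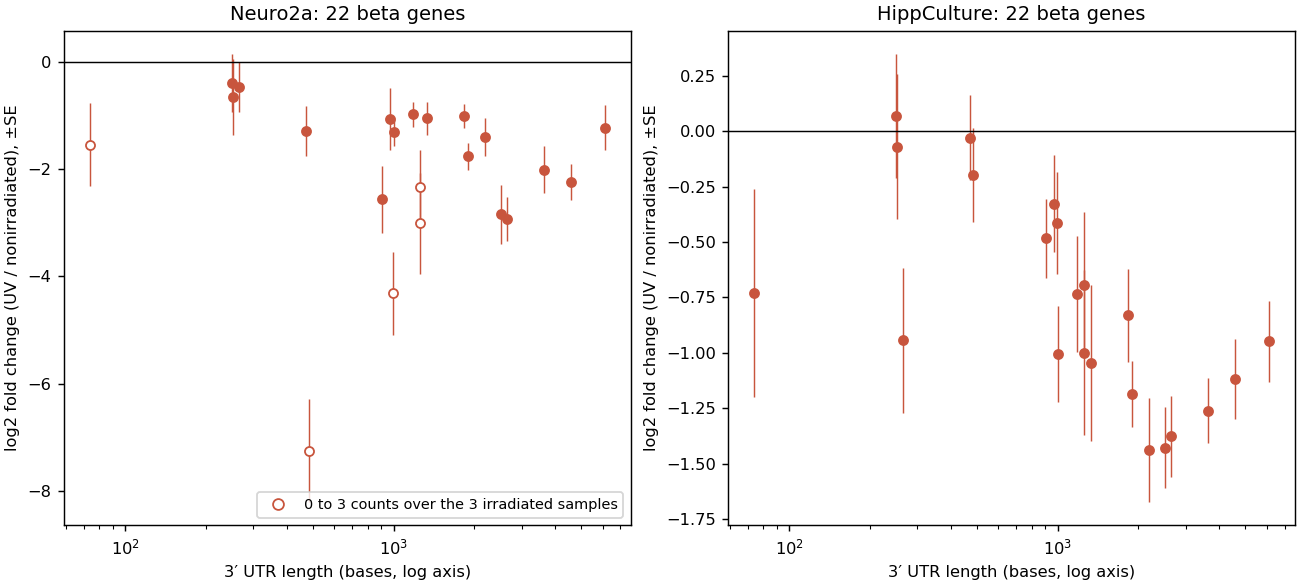
Log2 fold change upon UV irradiation, with its SE, against 3′ UTR length on a log axis for the 22 beta genes in Neuro2a (left) and HippCulture (right), each with its own vertical scale; open points have 0 to 3 counts over the 3 irradiated samples. In HippCulture the points fall from 0.07 at 251 bases (Pcdhb10) to −1.44 at 2184 bases (Pcdhb21), and in Neuro2a the lowest point is Pcdhb12 at 485 bases.

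The alpha shared part decreased in both cell types, while the unshared part of Pcdhac2 was not called in either. No fit tested the shared part against unshared parts. The alpha shared part fell from 17.3, 20.9 and 16.9 normalized CPM to 7.13, 6.63 and 8.06 in Neuro2a, a log2 fold change of −1.23 ± 0.16 (adjusted p = 1.2e-05). In HippCulture it fell from 98.1, 89.4 and 98.3 to 64.2, 55.6 and 62.1, with −0.67 ± 0.08 (adjusted p = 1.2e-06). The groups did not overlap in either cell type. The unshared part of Pcdhac2, the member with the most unshared reads, was at 12.5, 14.2 and 12.3 normalized CPM against 11.8, 10.3 and 12.5 in Neuro2a, with −0.06 ± 0.15 and a 95% interval of −0.35 to 0.22. In HippCulture it stood at 36.6, 30.9 and 40.5 against 32.4, 40.0 and 36.1, with −0.03 ± 0.11 and an interval of −0.24 to 0.19. These groups overlapped in both cell types.

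Other alpha variable exons varied, with a median unshared change of −0.78 over 12 members tested in Neuro2a. There, Pcdha9 had an unshared change of −0.18 ± 0.21 and Pcdha8 of −0.53 ± 0.26, neither past the test. The unshared part decreased in 3 of the 12, against 33% of all genes in the deposited counts. Of these 3, Pcdha11, picked out after its values were seen, went from 20, 28 and 14 counts to 0, 5 and 1 (−2.0 ± 0.65, adjusted p = 0.015) and Pcdha4 from 12, 15 and 19 to 4, 1 and 2 (−1.38 ± 0.55, adjusted p = 0.043). Pcdha6 had 31 unshared counts over the nonirradiated and 0 over the irradiated samples, at least 1.49-fold lower at the floor of 3 counts per library. It was among the lowest alpha members of every irradiated sample, so that 0 was set by the subtraction. The bound therefore holds for counts above the lowest member and not for all its own reads. Pcdha11 was likewise among the lowest members of irradiated replicate 1, where it had 0. In HippCulture, 0 of 13 alpha members tested decreased (1 at an unadjusted p under 0.05) and 1 increased, with a median of −0.03. The increase was that of Pcdha1, from 12, 0 and 18 unshared counts to 8, 21 and 22, in groups that overlapped, and Pcdha1 was itself the lowest member of 1 nonirradiated sample.

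Gamma RNAs in Neuro2a showed a different division. The gamma shared part fell from 10.4, 9.48 and 9.18 normalized CPM to 7.32, 5.56 and 3.40, a log2 fold change of −0.71 ± 0.23 (adjusted p = 0.014). The unshared part of Pcdhga4 fell from 6.67, 5.77 and 6.35 to 0.750, 0.641 and 0.849, with −2.93 ± 0.31 (adjusted p = 1.9e-06). That of Pcdhgb1 fell from 12.1, 14.8 and 13.9 to 4.5, 7.05 and 7.64, with −0.99 ± 0.19. Reads on the stretch where Pcdhga4 and Pcdhgb1 overlap enter both values, and their part in either fall was not tested. The unshared part of the C-type member Pcdhgc3 was at 12.6, 8.49 and 7.81 against 11.8, 8.55 and 8.06, with 0.09 ± 0.22, an interval of −0.35 to 0.53 and overlapping groups. Of 18 gamma members with a tested unshared part, 9 decreased and 0 increased (0 also at an unadjusted p under 0.05), against 33% and 28.9% of all genes, with values from −4.10 to 0.09 where deposited counts ranged from −1.25 to −0.26. The lowest value was that of Pcdhga6, from 51 unshared counts to 1, a ratio of 22 with a counting interval of 3.78 to 887. Pcdhga6 was among the lowest gamma members of irradiated replicates 2 and 3, so its 0 there was set by the subtraction. The interval does not allow for this. Of the 9 called, the same holds for Pcdhgb6 in replicates 2 and 3, Pcdhga5 in replicate 2 and Pcdhgb4 in replicate 1. Irradiated replicate 3 had the lowest gamma counts, and without it 12 of the 21 decreased gamma members were called in the deposited counts.

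In HippCulture the gamma shared part was at 97.9, 95.3 and 103 normalized CPM without and at 104, 90.5 and 84.3 with irradiation, with −0.12 ± 0.08 (adjusted p = 0.27) and overlapping groups. Unshared parts were called higher in 5 of 21 gamma members and lower in 0, against 26.1% and 25.9% of all genes in the deposited counts, so that the number called higher was near the share over all genes. Pcdhgc3 rose from 28, 24.8 and 28.4 to 36.0, 34.5 and 38.4, a log2 fold change of 0.40 ± 0.10 (adjusted p = 0.0020), in groups that did not overlap. Pcdhga4, which fell in Neuro2a, was at 6.63, 7.03 and 6.18 against 6.24, 7.59 and 8.11, with 0.12 ± 0.17. Whether the antisense gene over Pcdhgc3 contributed to its reads was not tested.

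The ratio of unshared to shared reads, each per kilobase and summed over the members of a cluster, gives this division per sample. In HippCulture it was near 1 without irradiation, 0.992, 0.994 and 1.13 for alpha and 1.06, 1.11 and 0.996 for gamma. After irradiation it was 1.37, 1.89 and 1.59 for alpha and 1.19, 1.45 and 1.36 for gamma. In Neuro2a alpha it was 2.00, 1.69 and 1.97 without and 3.09, 3.74 and 3.53 with irradiation. In these 3 cases every irradiated sample was above every nonirradiated one, with exact permutation p = 0.1 (two-sided), the smallest p that 3 against 3 samples allow. Neuro2a gamma was the exception, at 3.73, 3.60 and 3.96 without and 1.88, 2.65 and 4.58 with irradiation (exact permutation p = 0.4). In nonirradiated cells the ratio was higher in Neuro2a than in HippCulture in every sample of both clusters. The exon shared by Pcdhgb1 and Pcdhga4 enters the gamma sum for each of them.

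**Figure D5:**
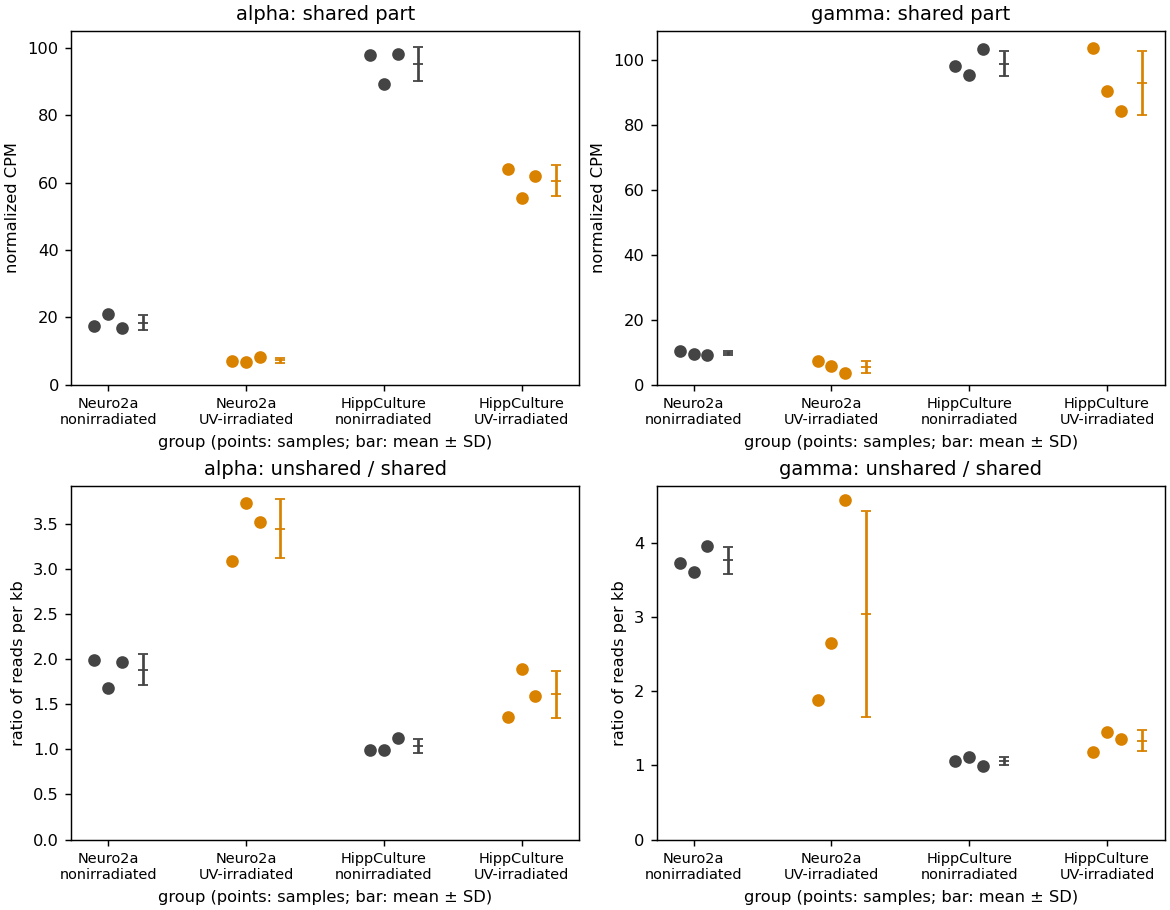
Shared part in normalized CPM (top) and ratio of unshared to shared reads per kilobase (bottom) for the alpha (left) and gamma (right) clusters by group, with a point for each of 3 samples and a bar for the mean ± SD. The alpha shared part falls upon irradiation in both cell types, while the gamma shared part of HippCulture overlaps between 84.3 and 104, and the alpha ratio rises from 1.69 to 2.00 up to 3.09 to 3.74 in Neuro2a.

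The change upon irradiation differed between the cell types for 34 of the 58 members, all with the less negative value in HippCulture, against 16.1% of 14973 genes tested in that direction. In the other direction there were 0 members in edgeR (0 also at an unadjusted p under 0.05, and 0 in DESeq2), against 8.39% of genes. The 34 were 10 alpha, 4 beta and 20 gamma members, with a median difference over all 58 of 0.63 beside 0.14 over all genes. The alpha and gamma counts share their reads, so the 10 and 20 members there are not that many separate observations. Of the 22 beta genes, which have no constant exons in common, 4 were called, near the share over all genes. The number of members called depended on the processing. It was 19 with DESeq2, 21 with DESeq2's size factors, 14 without irradiated Neuro2a replicate 2, and 20 without irradiated Neuro2a replicate 3 or irradiated HippCulture replicate 1. The gamma part of it ranged from 5 to 22 members over the samples left out in turn. The largest differences were those of Pcdhb12 (7.06 ± 1.07, a fitted value set by the irradiated Neuro2a samples at 0), Pcdhb8 (3.91 ± 0.79), Pcdhb7 (2.09 ± 0.62), Pcdhb16 (1.56 ± 0.50) and Pcdhga4 (1.15 ± 0.20).

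For the shared part itself, the difference was 0.56 ± 0.17 for alpha (adjusted p = 0.023) and 0.60 ± 0.22 for gamma (adjusted p = 0.056), so that gamma did not pass the test there.

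Scaling moved these values together. With library totals alone the median of all genes was −1.32 in Neuro2a and −0.59 in HippCulture, and the alpha, beta and gamma medians were −2.41, −2.63 and −1.94 in Neuro2a and −1.18, −1.42 and −0.65 in HippCulture. Relative to all genes, gamma members of HippCulture thus stayed near the median under both scalings, although with library totals all 22 were called lower.

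Of 12 protocadherins coded outside the clusters, most of them delta protocadherins, 4 reached the level required for the test in Neuro2a. Of these 2 decreased, and 8 of 11 decreased in HippCulture with a median log2 fold change of −0.45, against 33% and 25.9% of all genes. Pcdh19 changed there by −1.05 ± 0.11 and Pcdh11x by −0.94 ± 0.15. In Neuro2a, Pcdh15 changed by −0.70 ± 0.20, and Pcdh17 had a mean of 0.380 normalized CPM without irradiation and 0 with it, too low for a fold. None of those tested increased in either cell type.

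Of 19 regulators of the clusters, among them the insulator protein CTCF, cohesin and the enzymes of DNA methylation, 16 decreased in Neuro2a and 10 in HippCulture, against 33% and 25.9% of all genes, and 0 increased, with median log2 fold changes of −0.89 and −0.39. The largest changes in Neuro2a were those of Rest, a repressor of neuronal genes, with −1.72 ± 0.11 and of the cohesin regulator Pds5a with −1.68 ± 0.10, and a second cohesin regulator, Pds5b, changed by −0.84 ± 0.09 in HippCulture. Of 14 cytoplasmic partners, kinases and members of the WAVE complex that acts on actin, 7 decreased and 2 increased in Neuro2a (33% and 28.9% of all genes), and 6 decreased and 3 increased in HippCulture (25.9% and 26.1%). The WAVE subunits Abi2 and Brk1 moved in opposite directions in both, by −1.77 ± 0.10 and 1.20 ± 0.10 in Neuro2a and by −1.01 ± 0.08 and 0.84 ± 0.10 in HippCulture. Of 15 classical cadherins and catenins, 4 of 8 tested decreased in Neuro2a, and 7 of 14 decreased and 1 increased in HippCulture, beside 33% and 25.9% of all genes that decreased. Cdh2, N-cadherin, changed by −1.08 ± 0.14 in Neuro2a and the catenin Ctnnd1 by −0.42 ± 0.10 in HippCulture, where Cdh6 changed by −0.54 ± 0.22. Cdh6 was at 0 in all irradiated Neuro2a samples, from a mean of 0.401 normalized CPM, again too low for a fold.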

How the data were processed

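The authors mapped the reads to mm10 with TopHat2 2.1.1 and deposited raw counts per gene, made with featureCounts 1.6.1 on the exons of GENCODE M17 per the file headers, without normalization. A read on the exons of several genes was added to each of them. Symbols were taken from GENCODE M21, matched by Ensembl ID for 99.82% of genes; 2 IDs bear the name Pcdha11 there, and the one over RefSeq's Pcdha10 (GRCm38.p6) is called Pcdha10 here. The labels name a stranded library kit and the study's methods another TruSeq kit, so the strand of the libraries is unsure. The human samples were not analysed here. The members and gene lists were chosen with earlier results of these data known.

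Tests used edgeR 4.0.16 under R 4.3.3 (quasi-likelihood, TMM normalization, Benjamini-Hochberg adjustment over all genes tested, threshold 0.05). A gene entered a test where its nonirradiated mean reached 0.5 CPM, in both cell types for the difference in the effect of irradiation and in at least 1 for levels. All 58 members passed these filters. The SE is the log2 fold change divided by the square root of F. Each fold change comes from its own comparison's fit, levels from TMM factors over all 12 mouse samples, which were 1.17 to 1.40 in nonirradiated and 0.620 to 0.964 in irradiated samples. RPKM values divide them by exon length. 3′ UTR lengths are those of GENCODE M21. For the unshared part, the lowest count among the members of a cluster was subtracted in each sample and the fit repeated with all other genes. The shared part was fitted as a gene of its own, an alternative chosen after seeing the data.

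Named are the C-type members, in each cell type and cluster the 2 members with the highest mean and those with the most negative and most positive log2 fold change, the 5 with the largest difference in the effect of irradiation, the 5 with the largest difference in level each way, and the 2 with the largest change in each other list, of which 1 gene is not reported here; others were named after their values were seen. In Neuro2a, deviations of irradiated and nonirradiated samples with the same replicate number correlated at 0.35, 0.128 and 0.186 over genes. That the numbers pair these samples is a hint from the data only, and the block changed no call there. Replicates differed by more than sampling noise, with a chi-square per degree of freedom of at least 3.07. The code was tested on simulated counts. Python 3.11.15 and matplotlib 3.10.9 were used for tables and figures. The alternatives were DESeq2 1.42.0 as test or for size factors, library totals, other filters, the replicate block, the unshared part and each sample left out.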

Additional observations from a re-analysis of the deposited data

Results flagged for a closer look

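The effect of irradiation differed between Neuro2a and HippCulture by the test of the difference itself (edgeR interaction term, HippCulture minus Neuro2a, log2) for 5 named members, all less decreased in HippCulture. The difference was 7.06 for Pcdhb12, whose irradiated Neuro2a samples all held 0 counts, so that its size depends on the fit. It was 3.91 for Pcdhb8, with 1 count over the irradiated Neuro2a samples, 2.09 for Pcdhb7 and 1.56 for Pcdhb16. For Pcdhga4 it was 1.15 in the deposited counts and 3.05 ± 0.35 in its unshared part. The call for Pcdhb7 was lost without irradiated Neuro2a replicate 1 or 2, and that for Pcdhb16 without irradiated Neuro2a replicate 2 or 3, without irradiated HippCulture replicate 3 and with DESeq2.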

How the results depend on the processing

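The number of all members decreased upon irradiation stayed within 1.5 times under every other normalization, test and filter, except with library totals in HippCulture (56 against 28). With genes of at least 10 counts in every sample, the decreased beta genes in Neuro2a fell from 17 to 3, the number that met this filter. With the unshared part in place of the deposited counts it was 29 in Neuro2a and 14 in HippCulture, where 6 members were then called higher. The difference between the cell types, 34 members, fell to 21 with DESeq2's size factors, 19 with the DESeq2 test and 13 with the unshared part. Of the 2 members lower in nonirradiated HippCulture, 1 was called with the DESeq2 test, and 8 were lower with the unshared part. The unshared part holds fewer reads and fewer tested members by construction, and it is 0 for the lowest member of each sample. Leaving out each sample in turn, the decreased members numbered 42 to 52 in Neuro2a (lowest without irradiated replicate 3) and 25 to 30 in HippCulture, with 0 increased. Members higher in HippCulture stayed at 52, those lower at 1 to 2, and those with a differing change at 14 to 34.

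With the replicate number as a block the counts were 52 in Neuro2a, 28 in HippCulture, 54 for levels and 37 for the differing change, which gained Pcdha1, Pcdhb19 and Pcdhgb8. The block ended no call. In HippCulture same-numbered samples correlated at 0.154, 0.0847 and 0.0657, and 6 of 6 samples correlated best with their own number, a hint from the data only. Between the nonirradiated samples of the 2 cell types this held for 2 of 6.

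Of 869 comparisons of 66 results on named members with an alternative, 789 kept direction and call, 38 lost the call, 20 gained it and 22 turned direction. Of the 22 turned values, all log2 fold changes upon irradiation, those of Pcdhgc3 and Pcdhb10 with library totals follow from that scaling, which moved the median of all genes in HippCulture from −0.04 to −0.59. Of the others only Pcdhga1 with the unshared part passed the threshold in the alternative, and their cause was not tested. With the unshared part, Pcdhgc3 in Neuro2a was at 0.0915, and in HippCulture Pcdhac1 was at 0.73, Pcdhgc4 at 0.087, Pcdhgc5 at 0.14, Pcdha9 at 0.0125, Pcdha6 at 0.15, Pcdhgb1 at 0.14, Pcdhga4 at 0.12, Pcdhga3 at 0.10, Pcdhga11 at 0.12 and Pcdhga1 at 0.57. Pcdhgc3 in HippCulture was at −0.0057 with DESeq2's size factors and with the DESeq2 test, −0.54 with library totals, −0.0198 with genes of at least 1 count and −0.0763 with at least 10 counts in every sample. Pcdhb10 in HippCulture was at −0.46 with library totals and −0.019 with at least 10 counts. Over the samples left out, the value of Pcdhb10 ran from −1.15 to 0.0596 in Neuro2a. In HippCulture it ran from −0.18 to 0.35, that of Pcdhgc3 from −0.0406 to 0.0828 and that of Pcdhga1 from −0.13 to 0.0016.

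At the depth of these libraries, unshared parts of a few counts limit what can be seen in single variable exons, and members at 0 to 3 counts after irradiation have only bounds or wide counting intervals.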
